A study of Mus musculus with 30 samples.

Results

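The 9 genes described here encode the core factors of nonsense-mediated mRNA decay: Upf1, Upf2, Upf3a, Upf3b, Smg1, Smg5, Smg6, Smg8 and Smg9. They were taken by name, not by their values, and each matched 1 of the 48709 genes in the count tables. The study sequenced total RNA from brain, kidney, liver, muscle (quadriceps femoris) and spleen of adult C57BL/6 mice. In each tissue there were 3 wild-type (WT) libraries and 3 libraries of Ctcf heterozygous mice, written Ctcf+/- in the labels, for 30 libraries in 10 groups. No treatment or exact age is given, and which part of Ctcf the mutant allele lacks is not given in the sources used here. The study's design states that the tissues came from 3 WT and 3 heterozygous mice, so libraries of different tissues can come from the same mouse, and the labels do not say which.

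Nonsense-mediated decay removes mRNAs on which translation stops too early, among them transcripts that keep an intron with a stop codon in frame. The helicase Upf1 is recruited to the stalled ribosome, where Upf2 and a Upf3 protein link it to exon junction complexes left downstream. The kinase Smg1, held in a complex with Smg8 and Smg9, then phosphorylates Upf1, and phosphorylated Upf1 recruits Smg6, which cuts the mRNA, or Smg5, which leads to deadenylation and decapping. Several of these factors are known to be encoded by transcripts that are themselves targets of the pathway. CTCF is the zinc-finger protein that binds insulators and anchors chromatin loops.

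On GRCm38 the genes lie on 5 autosomes and the X chromosome. Upf1 spans chr8:70331525-70353278, Upf2 chr2:5951469-6056703, Upf3a chr8:13785615-13799193 and Upf3b chrX:37091678-37110322. Smg1 spans chr7:118131308-118243670, Smg5 chr3:88336260-88362338, Smg6 chr11:74925823-75164448, Smg8 chr11:87077732-87086774 and Smg9 chr7:24399619-24422778. All 9 were matched by symbol to RefSeq promoter windows on GRCm38.p6, and the 250 bases before each annotated start were searched on both strands. The 2 windows of the Upf3 paralogues are shown, because they differ in the letters of the CTCF core motif (CC, 3 bases of any kind, AG, 2 of any kind, then GGC). Capitals mark that match, which lies on the opposite strand 83 to 72 bases before the start of Upf3a. The window of Upf3a is chr8:13785365-13785614 on the plus strand and that of Upf3b chrX:37110323-37110572 on the minus strand, both written 5′ to 3′ along the gene.
Upf3a: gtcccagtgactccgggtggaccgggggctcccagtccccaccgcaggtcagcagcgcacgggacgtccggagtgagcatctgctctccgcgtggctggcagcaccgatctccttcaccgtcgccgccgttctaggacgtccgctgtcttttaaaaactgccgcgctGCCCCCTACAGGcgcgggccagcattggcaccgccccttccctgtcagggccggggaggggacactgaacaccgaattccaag
Upf3b: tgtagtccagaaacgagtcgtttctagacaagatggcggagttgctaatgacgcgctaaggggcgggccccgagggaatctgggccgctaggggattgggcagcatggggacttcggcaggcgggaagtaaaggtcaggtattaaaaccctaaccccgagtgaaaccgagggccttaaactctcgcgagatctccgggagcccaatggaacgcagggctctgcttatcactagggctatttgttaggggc

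Upf3a was the 1 member of 9 with a match to the CTCF core, which 7.17% of all 32851 windows of this length hold. The GC box GGGCGG was found in 7 members, all but Smg5 and Smg8, against 32.74% of all windows. TATAAA was found in 0 of 9 members against 12.37% of windows, and the cyclic AMP response element TGACGTCA in 0 of 9 against 1.546%. The NRF1 core was found in Upf1 alone (0.782% of windows) and the ETS core CCGGAAGN in Smg8 alone (6.877%). The matches to the CTCF core and to the GC box in Upf3a do not overlap. The members' windows held 12 (Smg8) to 41 (Upf1) CpG dinucleotides against a median of 6 over all windows. Their GC content was 50.8% (Smg8) to 72.8% (Upf1) against a median of 52.4%. A match is a run of letters, not a measured binding site.

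The libraries held 49.8 M to 131.6 M assigned fragments. Counts of a member ran from 488 fragments (lowest library for Upf3b) to 48824 (highest for Smg1). At the lower counts, counting error can be as large as the spread between 3 libraries. Ctcf was lower in heterozygous than in WT libraries of every tissue, with no overlap between the groups. Within single tissues it passed an adjusted p of 0.05 in brain alone (0.0259). Its log2 fold change was -0.63 ± 0.06 (SE) shared over tissues, with an adjusted p of 4.00e-07 in edgeR's quasi-likelihood test. Markers of each labelled tissue were present. Summed brain markers were 5883 to 6517 CPM (counts scaled to library size) in brain libraries and at most 92.1 elsewhere, kidney markers 14467 to 19872 against at most 101.8, and liver markers 201823 to 306859 against at most 270.2. Muscle markers reached 218658 to 267697 CPM in muscle against at most 156.9, and spleen markers 4359 to 6320 in spleen against at most 312.5. The spleen libraries differed most among themselves. Summed red-cell markers were 54128, 34439 and 9046 CPM in WT replicates 1 to 3 and 12409, 46662 and 20535 in the heterozygous replicates.

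Levels of the members were compared first per length, as fragments per kilobase of exon and library size (FPKM, with library sizes scaled by the trimmed mean of M-values, TMM, over all 30 libraries). The annotation lets this go only so far. The exons of Upf1 and Smg8 are all part of coding transcripts, whereas 64.9% of the counted exon bases of Upf3a, 40.4% of Upf3b, 36.1% of Smg5, 35.5% of Smg9, 32.6% of Smg1 and 30.2% of Smg6 lie outside them in GENCODE M21. Smg1 and Smg5 have 5 annotated retained-intron transcripts each, Smg9 has 4, Upf3a has 2 and Smg6 has 1. The counts do not separate these transcripts from the coding ones. With that limit, and per counted exon length, Upf1 had the highest mean FPKM and Smg5 the second highest in WT libraries of all 5 tissues. This order depends on the length used. Of the 6956 counted bases of Smg5, 4448 lie in coding transcripts, against all 4618 of Upf1. Of the 5865 counted bases of Upf3a, 2057 lie in coding transcripts. With the lengths of coding transcripts alone, Smg5 would stand above Upf1 in brain and muscle, and Smg1 would not be lowest in brain. Upf3a would then stand above Smg5 in kidney and just below Upf1 in brain. Upf1 ranged from 11.9 ± 1.5 FPKM in brain to 27.3 ± 2.6 in spleen (SD, n = 3), and Smg5 from 7.78 ± 0.38 in kidney to 14.3 ± 1.2 in muscle. Smg1, the kinase, had the lowest mean in brain, kidney, liver and muscle, at 1.75 ± 0.32 FPKM in kidney to 2.83 ± 0.54 in brain. In spleen it reached 9.37 ± 3.75 FPKM and the 5th place of 9.

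Levels of each gene were then compared between tissues on the CPM scale, with TMM over the 30 libraries for the levels and over the 15 WT libraries for the test. The choice of scaling matters here. Scaling to total counts in place of TMM moved the median gene by 1.09, 1.26, 0.99 and 1.16 on the log2 scale for brain against liver, brain against muscle, kidney against liver and kidney against muscle. It moved it by -1.17 for liver against spleen and by -1.32 for muscle against spleen. Of 90 member and tissue-pair combinations, 57 were called at an adjusted p under 0.05, and 14 of the 57 changed sign with total counts. Each log2 difference is therefore also given relative to the median gene. Subtracting the median removes a shift common to all genes, so this measure is nearly the same under both scalings by construction. It differed by at most 0.14 and kept 1 sign in all 57, which does not tell which scaling gives the right direction. In the separate heterozygous libraries, 56 of the 57 had the same sign and 48 were called again. Most genes differ between tissues. Members called were 5 of 9 for brain against kidney (background 71.4% of 22933 genes), 4 for brain against liver (73.2%), 6 for brain against muscle (72.3%), 7 for brain against spleen (79.8%) and 3 for kidney against liver (54.1%). They were 7 for kidney against muscle (64.4%), 7 for kidney against spleen (75.5%), 6 for liver against muscle (64.2%), 7 for liver against spleen (72.9%) and 5 for muscle against spleen (75.2%).

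Upf1, the helicase at the centre of the pathway, was highest in spleen. WT spleen libraries held 135.0, 131.2 and 112.3 CPM, against 51.9, 62.8 and 49.4 in brain, and the 2 tissues did not overlap. The brain minus spleen log2 difference was -1.12 ± 0.14 (SE), or -1.25 relative to the median gene, with an adjusted p of 3.04e-06 in edgeR's quasi-likelihood test. Levels rose in the order brain, kidney, muscle, liver, spleen, where brain and kidney were not called different (adjusted p = 0.291) and neither were muscle and liver. With total counts muscle and liver moved below brain. Both scalings placed spleen highest, brain below kidney and muscle below liver, and the rest of the order rests on the scaling. Upf2, which bridges Upf1 and Upf3, followed another order. It was highest in muscle, at 67.5, 59.8 and 75.7 CPM in WT libraries, and lowest in liver, at 32.5, 29.0 and 23.8 CPM. Liver and kidney were not called different for Upf2 (adjusted p = 0.503 in the same test), and in heterozygous libraries kidney was lowest. The liver minus muscle difference was -1.41 ± 0.13, and also -1.41 relative to the median gene. Muscle exceeded spleen by 0.50 ± 0.12 for Upf2 (also 0.50 relative to the median gene, adjusted p = 0.00181), a direction that total counts reversed to -0.84. In heterozygous libraries this pair was not called (adjusted p = 0.0553 in edgeR's quasi-likelihood test).

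The Upf3 paralogues, of which Upf3b is the stronger activator of decay in cell assays, were both highest in spleen. Upf3b held 40.6, 38.8 and 43.4 CPM in WT spleen, 29.0, 29.6 and 32.4 in muscle, and 13.7 to 21.1 in the WT libraries of brain, kidney and liver. Muscle and spleen were not called different for Upf3b (adjusted p = 0.0676). Kidney minus muscle was -0.78 ± 0.13 (-0.998 relative to the median gene, adjusted p = 7.65e-05) for Upf3b, and reversed to 0.39 with total counts. Upf3a varied least after Smg8, with the highest tissue mean 1.53 times the lowest. No 2 neighbours in its order of liver, brain, kidney, muscle and spleen were called different. Its called pairs were liver against muscle, liver against spleen and brain against spleen, with log2 differences of -0.51, -0.60 and -0.45, or -0.51, -0.57 and -0.58 relative to the median gene.

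Smg1 had the widest range of the 9, with a WT spleen mean 5.34 times the kidney mean. WT spleen libraries held 124.3, 252.4 and 297.5 CPM and heterozygous ones 280.3, 114.3 and 354.2, whereas no library of another tissue exceeded 91.6. Kidney minus spleen was -2.39 ± 0.32 (-2.43 relative to the median gene), with an adjusted p of 9.25e-06. Spleen exceeded each other tissue, and of the remaining 6 tissue pairs 1 was called, brain above kidney by 0.75 ± 0.31 (0.77 relative to the median gene, adjusted p = 0.0423). That call was lost with total counts (adjusted p = 0.0533) and in heterozygous libraries (0.0876). Smg8 and Smg9, its partners, had different profiles. Smg8 varied least of the 9, from 11.03 ± 0.51 CPM in kidney to 16.6 ± 1.3 in liver (SD, n = 3), and spleen, at 16.4 ± 2.1, was not called different from liver (adjusted p = 0.851). Kidney was lower than liver for Smg8 by a log2 difference of -0.57 ± 0.12, or -0.65 relative to the median gene, reversed to 0.42 with total counts. Smg9 ran from 13.7 ± 0.7 CPM in kidney to 32.4 ± 5.4 in spleen, with 28.5 ± 2.6 in muscle.

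Smg5 and Smg6, the factors that carry out decay downstream of Upf1, had opposite extremes. Smg6, the endonuclease, was lowest in muscle, at 20.1, 24.4 and 26.1 CPM in WT libraries, and the other WT libraries held 33.2 to 47.3 CPM. It was called lower in muscle than in each other tissue, with adjusted p between 0.000114 and 0.00381, and total counts did not change that sign. Smg5, the adaptor, was highest in WT muscle, at 102.1, 90.2 and 106.2 CPM, and lowest in kidney, at 57.0, 51.8 and 53.6 CPM. Kidney minus muscle was -1.01 ± 0.11 for Smg5, or -1.23 relative to the median gene, reversed to 0.15 with total counts. Its small excess in muscle over spleen, 0.24 ± 0.11 (also 0.24 relative to the median gene), likewise reversed with total counts (-1.09) and was -0.0040 in heterozygous libraries.

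**Figure D1:**
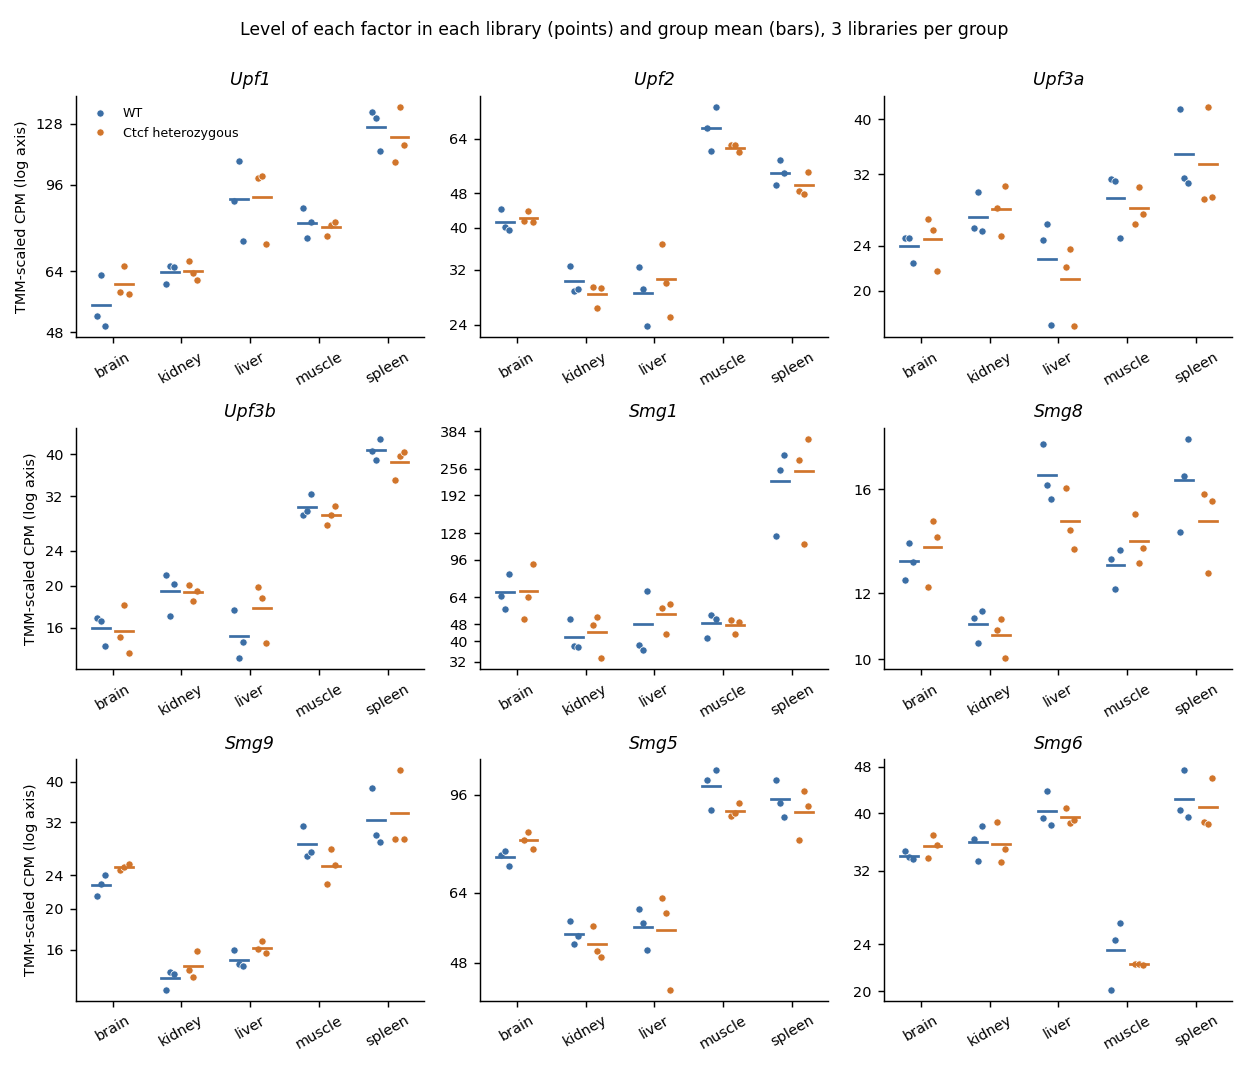
Level of each of the 9 factors in TMM-scaled CPM (log axis) in every library of the 5 tissues, WT in blue and Ctcf heterozygous in orange, with a bar at each group mean (n = 3). Smg1 in spleen runs from 114.3 to 354.2 CPM and Smg6 in muscle from 20.1 to 26.1, while the orange and blue points of a tissue largely overlap. Heights of liver and muscle against the other tissues depend on the scaling, and 14 of 57 called differences change sign with total counts.

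Ratios of 2 members within a library do not depend on the scaling, so partners with related roles were compared that way, as counts per kilobase of exon. For 5 ratios and 10 tissue pairs, 50 two-sided exact permutation tests were run with 6 libraries per tissue, permuting tissues within genotype. The smallest p such a test can give is 0.005, which becomes 0.00806 after Benjamini-Hochberg adjustment over the 50. By this measure 35 of the 50 were called. Ratios of other gene pairs were not computed, so no background share stands beside this count. Most single genes were also called between WT tissues, 54.1% to 79.8% of them depending on the pair. All ratios but that of the Upf3 paralogues were chosen after the levels were known, and tissues may share mice, so these p-values describe these libraries.

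Smg6 relative to Smg5 separated the tissues into 3 levels. In kidney the ratio was 0.545 ± 0.034 in WT and 0.565 ± 0.022 in heterozygous libraries (SD, n = 3), and in liver 0.599 ± 0.052 and 0.607 ± 0.122. In brain it was 0.377 ± 0.011 and 0.364 ± 0.016, and in spleen 0.372 ± 0.047 and 0.379 ± 0.048. In muscle it fell to 0.196 ± 0.031 and 0.204 ± 0.006. Muscle did not overlap any other tissue, and liver exceeded it 3.01-fold (exact permutation p = 0.005, adjusted 0.00806). Kidney against liver (p = 0.235) and brain against spleen (p = 0.875) were the 2 pairs of 10 not called for this ratio in the same exact permutation test.

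Upf3a relative to Upf3b split the tissues in another way. In WT libraries the ratio was 1.02 ± 0.02 in brain, 0.960 ± 0.199 in kidney and 1.02 ± 0.26 in liver, and 0.659 ± 0.120 in muscle and 0.580 ± 0.110 in spleen. Each of brain, kidney and liver exceeded muscle and spleen without overlap over all 12 libraries of each pair, by 1.37-fold (liver over muscle) to 1.80-fold (brain over spleen), with an exact permutation p of 0.005 and an adjusted p of 0.00806. The absolute value of this ratio rests on the exon lengths. With the lengths of coding transcripts alone it would be 1.73 ± 0.04 in WT brain and 0.985 ± 0.187 in WT spleen, while the ratio between tissues stays as given.

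Smg8 relative to Smg9 was highest in liver, at 1.26 ± 0.04 in WT and 1.04 ± 0.09 in heterozygous libraries, followed by kidney at 0.929 ± 0.078 and 0.845 ± 0.106. Brain, muscle and spleen had group means between 0.524 and 0.662 and were not called different from each other. Upf2 relative to Upf1 was highest in muscle (0.710 ± 0.073 in WT) and brain (0.642 ± 0.093) and lowest in liver (0.269 ± 0.040). Liver was called lower than each other tissue, without overlap except with spleen (exact permutation p = 0.015, adjusted 0.0214). Muscle and brain were not called different (exact permutation p = 0.055, adjusted 0.0764). Smg1 relative to Upf1 was 0.353 ± 0.167 in WT spleen and 0.245 ± 0.073 in WT brain, which were not called different (exact permutation p = 0.165, adjusted 0.212). It was 0.109 to 0.128 on average in WT kidney, liver and muscle.

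**Figure D2:**
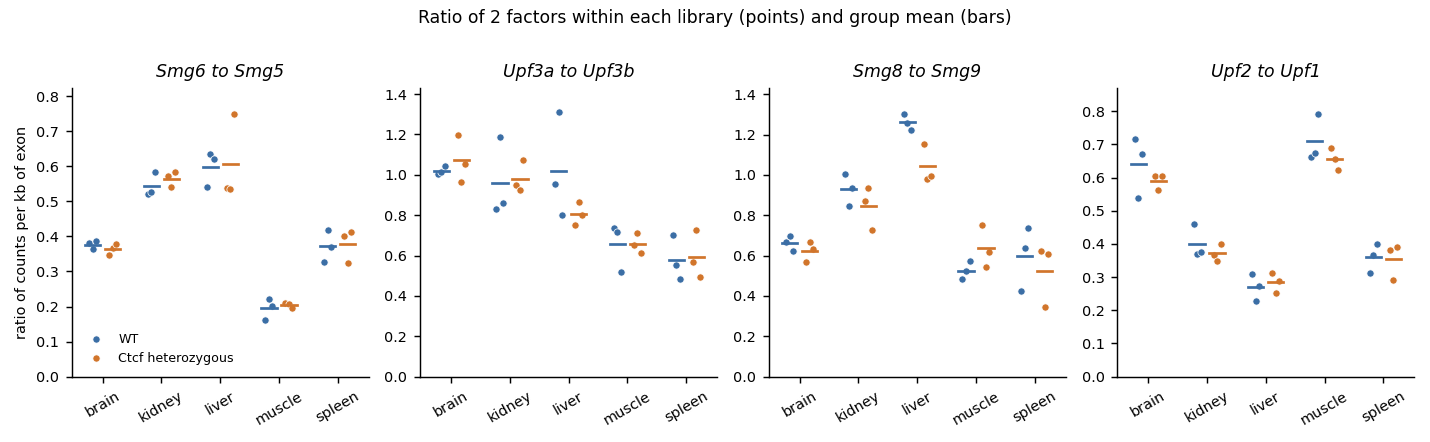
Ratio of counts per kilobase of exon between 2 factors within each library, by tissue, WT in blue and Ctcf heterozygous in orange, with bars at the means of 3 libraries. Smg6 to Smg5 is 0.162 to 0.222 in the 6 muscle libraries and above 0.5 in all kidney and liver libraries, and Upf3a to Upf3b is lower in muscle and spleen than in the other tissues.

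Several members differed among the spleen libraries along with the red-cell markers. The 2 libraries with the most red-cell marker RNA, WT replicate 1 (54128 CPM) and heterozygous replicate 2 (46662 CPM), had the lowest Smg1 of the 6, 124.3 and 114.3 CPM against 252.4 to 354.2 in the others. The same 2 libraries had the highest Upf3a, 41.8 and 42.1 CPM against 29.0 to 31.5, and the highest Smg9, 38.6 and 42.5 CPM against 28.8 to 29.8. They were also the lowest for Smg8, at 14.2 and 12.7 CPM against 15.5 to 18.4, and the highest for Upf1 and Smg5. Upf1 held 135.0 and 138.5 CPM in the 2 against 106.7 to 131.2, and Smg5 102.1 and 97.3 against 79.5 to 92.8. These levels are on the TMM scale. The 2 libraries had the lowest TMM factors of the 6, at 1.279 and 1.282 against 1.395 to 1.566. With total counts the 2 would still be lowest for Smg1 and Smg8 and highest for Upf3a and Smg9. They would not be highest for Upf1 or Smg5, so that part of the split rests on the scaling. On the TMM scale Smg6 showed no such split, with 40.5 and 38.4 CPM in the 2 and 38.7 to 47.3 in the others. Upf2 and Upf3b showed none on that scale either. With total counts the 2 libraries would be the lowest of the 6 for Smg6, Upf2 and Upf3b. The 2 libraries were set apart after the data were seen. The share of all genes that split in the same way was not computed, so the split is not shown to be particular to these factors. The part of red cells in these values was not tested, and in bulk tissue fewer cells of a type and less RNA per cell cannot be told apart. Exocrine pancreas markers summed to 1196 CPM in heterozygous replicate 2 and to 15.4 to 153.8 in the other 5, and macrophage markers to 308.7 CPM in heterozygous replicate 2 and 101.8 to 238.0 in the others. Markers of dividing cells did not separate the 2 libraries (903.1 and 784.3 CPM, against 287.1 to 1127 in the others).

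**Figure D3:**
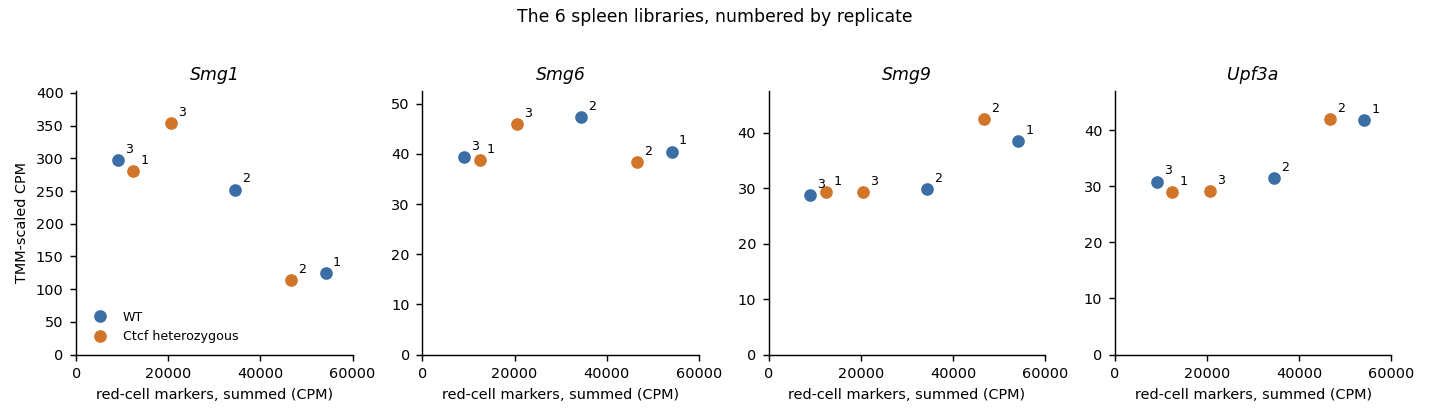
The 6 spleen libraries, numbered by replicate, with the summed level of 4 red-cell markers (CPM) on the x axis and the level of Smg1, Smg6, Smg9 or Upf3a (TMM-scaled CPM) on the y axis. WT replicate 1 and heterozygous replicate 2, at the right of each panel, are lowest for Smg1 and highest for Smg9 and Upf3a. For Smg6 they lie within the range of the others or at its edge on this scale, and would be lowest with total counts.

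The comparison of genotypes asked whether these factors differ where one Ctcf allele is missing. None of the 9 was called in any tissue. In edgeR's quasi-likelihood test, with TMM within the tissue, 0 of 9 members passed an adjusted p of 0.05 in brain (background 0.0157% of 19166 genes), kidney (0.0211% of 18937), liver (0.0193% of 15584), muscle (0.0249% of 16064) and spleen (0.242% of 18615). With the replicate number as a block, which the check of pairing allows in brain and kidney, 22 and 21 genes were called there in place of 3 and 4, and still 0 of 9 members. At these backgrounds a count of 0 among 9 genes is also what all genes show, so the sizes say more than the calls. No member reached an unadjusted p under 0.05 in any of the 45 comparisons, against shares of all genes of 2.96% (brain), 6.44% (kidney), 4.56% (liver), 6.45% (muscle) and 3.52% (spleen). Leaving out 1 library brought 1 member under 0.05 in brain without WT replicate 2 (Upf1, log2 fold change 0.17) and 1 in liver without WT replicate 3 (Smg1, 0.55), and neither was called. With all libraries the smallest was 0.110, for Smg5 in muscle, and the largest absolute log2 fold change was 0.198, for Smg8 in liver. The 95% interval lay within 1.5-fold both ways for 42 of the 45, all but Smg1 in liver and spleen and Smg9 in spleen.

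In brain, member log2 fold changes were -0.09 (Upf3b) to 0.07 (Upf1). Leaving Smg1 aside, every interval there lay between 0.803-fold and 1.22-fold, and that of Smg1 lay between 0.684-fold and 1.37-fold. Upf1, scaled within brain as in the test, held 73.3, 88.0 and 70.9 CPM in WT and 79.7, 86.2 and 78.2 in heterozygous libraries, and the groups overlapped. Ctcf in the same libraries fell from 66.5, 68.1 and 71.7 to 40.9, 44.4 and 42.8 CPM, a log2 fold change of -0.69 ± 0.06. In kidney the members lay between -0.10 (Upf2) and 0.09 (Smg9), with intervals from 0.813-fold to 1.24-fold without Smg1 and from 0.786-fold to 1.401-fold for Smg1, where Ctcf had -0.70 ± 0.10.

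In liver Smg8 and Upf3b lay farthest from 0, in opposite directions. Smg8 held 11.3, 10.1 and 10.7 CPM in WT and 10.1, 9.11 and 8.77 in heterozygous liver, a log2 fold change of -0.20 ± 0.13 with overlapping groups. Upf3b held 10.97, 8.49 and 10.2 CPM in WT and 12.5, 11.9 and 9.54 in heterozygous liver, a log2 fold change of 0.20 ± 0.16. Smg9 was the 1 member and tissue of 45 whose groups did not overlap, by a narrow gap, with 10.01, 9.18 and 10.06 CPM in WT and 10.09, 10.68 and 10.13 in heterozygous liver. Groups failed to overlap in either direction for 8.99% of all genes in liver, 7.83% in brain, 11.4% in kidney, 12.2% in muscle and 6.64% in spleen. The log2 fold change of Smg9 was 0.08 ± 0.13. WT liver replicate 3 stood apart, with 47.4 CPM of Smg1 against 24.01 and 22.5 in the other WT livers, and 36.1, 27.4 and 38.7 in heterozygous ones. The log2 fold change of Smg1 in liver was 0.12 ± 0.28 with this library and 0.55 without it (adjusted p = 0.373 in edgeR's quasi-likelihood test).

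In muscle 8 of 9 members had a log2 fold change below 0, with a median of -0.08 against -0.0075 over all genes, of which 48.4% lay above 0. Smg9 had -0.19 ± 0.11, Upf2 -0.17 ± 0.11 and Smg5 -0.17 ± 0.09, and none passed the test (adjusted p between 0.855 and 0.886 in edgeR's quasi-likelihood test). Smg5 held 63.1, 56.7 and 67.0 CPM in WT and 54.1, 54.7 and 57.5 in heterozygous muscle, and the groups overlapped. Adipocyte markers summed to 286 to 539 CPM in WT and 590 to 1071 in heterozygous muscle, and fibroblast markers to 447 to 734 and 581 to 1249. Their part in these values was not tested. Smg8 went the other way, at 0.08 ± 0.11.

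In spleen the intervals were widest. Smg1 had a log2 fold change of 0.17 ± 0.47, with a 95% interval from 0.522-fold to 2.44-fold. These libraries are compatible with any change inside that interval. Without WT replicate 1 and heterozygous replicate 2, an alternative chosen after the data were seen, Smg1 had a log2 fold change of 0.22 (adjusted p = 0.957 in edgeR's quasi-likelihood test) and 0 members were called. The WT spleens carried liver markers at 22.4 to 28.2 CPM against 0.063 to 0.21 in the heterozygous ones, which in turn carried kidney markers at 6.92 to 14.5 CPM against 0.092 to 0.26. These traces move with genotype, and their part in the spleen values was not tested.

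**Figure D4:**
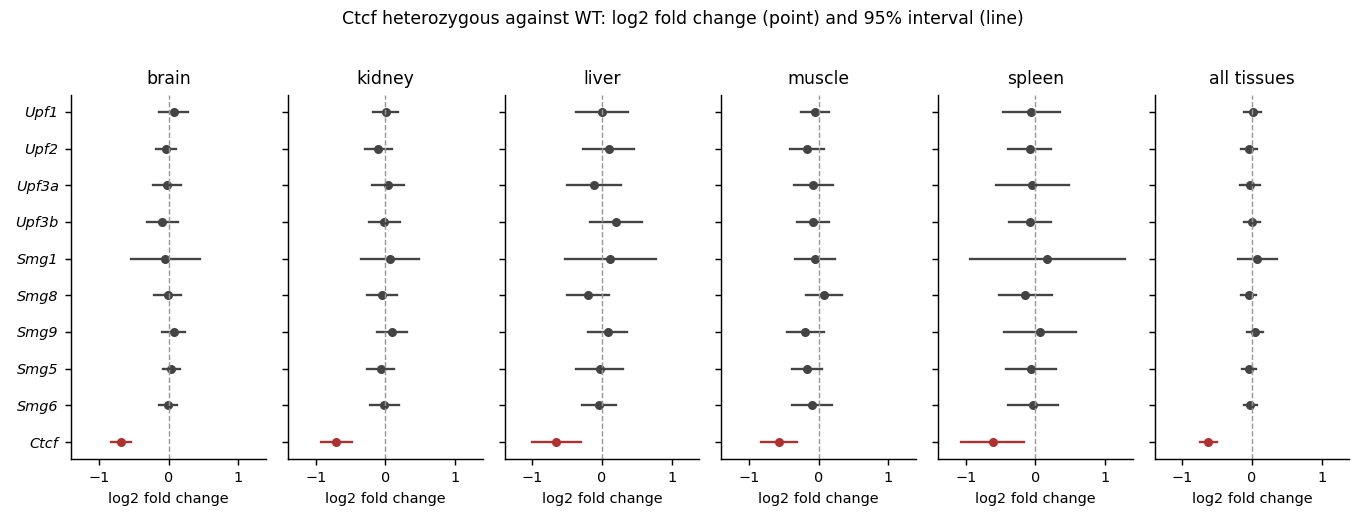
Log2 fold change of Ctcf heterozygous against WT libraries (point) with its 95% interval (line) for the 9 factors and for Ctcf in each tissue and shared over all tissues (n = 3 per group and tissue). All intervals of the 9 factors include 0, those of Ctcf lie below 0, and Smg1 in spleen has the widest interval.

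Fitted over all 30 libraries with tissue as a term, the shared genotype effect was again called for 0 of 9 members, against 0.194% of 24262 genes, with 0 of 9 at an unadjusted p under 0.05 against 5.91%. Log2 fold changes ran from -0.05 ± 0.05 (Smg8) to 0.08 ± 0.14 (Smg1), with a median of -0.024 against 0.013 over all genes. Leaving Smg1 aside, every 95% interval lay between 0.888-fold and 1.12-fold, and that of Smg1 between 0.866-fold and 1.28-fold. A term for genotype effects that differ between tissues was called for 0 of 9 members, against 0.758% of genes, with 0 of 9 at an unadjusted p under 0.05 against 6.66%. The smallest unadjusted p of that edgeR test was 0.381, for Smg8. This fit treats the 5 tissues of a mouse as independent libraries.

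Upf3a, with the CTCF core letters before its start shown above, had log2 fold changes of -0.03 (brain), 0.04 (kidney), -0.12 (liver), -0.08 (muscle) and -0.04 (spleen), and -0.03 ± 0.07 shared. Upf3b, without them, had 0.0026 ± 0.05 shared. Within libraries the ratio of Upf3a to Upf3b was, heterozygous over WT, 1.05-fold (brain), 1.03-fold (kidney), 0.804-fold (liver), 1.01-fold (muscle) and 1.02-fold (spleen). The liver values were 0.955, 1.31 and 0.800 in WT and 0.754, 0.863 and 0.800 in heterozygous libraries. Two-sided exact permutation p-values were 0.3 (liver) to 1 and the adjusted ones 1, in a design of 3 against 3 that cannot go below 0.1.

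The rest of the pathway was read from 7 lists with 71 genes. In every genotype comparison 0 of their 70 tested genes were called, and genes with an unadjusted p under 0.05 numbered 0 (brain), 1 (kidney), 3 (liver), 2 (muscle), 0 (spleen) and 2 (shared fit), against the shares of all genes given above. Exosc6 was not tested, since its exons lie wholly within those counted for Aars and such fragments were left out. Among the other decay factors (7 genes, shared median 0.0029) Mov10, an RNA helicase, had 0.11 ± 0.08 at the upper end, and the helicase subunits Ruvbl1 and Ruvbl2 -0.03 ± 0.07 and -0.02 ± 0.07 at the lower end. In the exon junction complex and its partners (11 genes, median 0.000023) Pnn had 0.15 ± 0.07 and Pym1 0.03 ± 0.08, and Eif4a3, its helicase core, -0.06 ± 0.08 and Sap18 -0.04 ± 0.07. Among termination and cap or tail binding factors (10 genes, median -0.011) Gspt2, a termination GTPase, had 0.38 ± 0.13 and Pabpc1 0.06 ± 0.08, and Ncbp3 -0.09 ± 0.04 and Pabpc4 -0.07 ± 0.09. Gspt2 had the smallest adjusted p of the lists in the shared edgeR fit, 0.415. Its liver libraries held 0.826, 1.04 and 1.38 CPM in WT and 2.19, 2.49 and 2.18 in heterozygous mice, and did not overlap.

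Decapping and 5′ to 3′ decay factors (9 genes, median 0.025) ran from -0.03 ± 0.06 (Lsm1) and -0.0088 ± 0.04 (Edc3) to 0.05 ± 0.07 (Dcp1a) and 0.12 ± 0.06 (Dcp1b). The CCR4-NOT deadenylase (10 genes, median 0.020) ran from -0.03 ± 0.04 (Cnot2) and -0.0053 ± 0.05 (Cnot8) to 0.04 ± 0.05 (Cnot9) and 0.07 ± 0.08 (Cnot6l). The exosome and Ski complex (13 of 14 genes tested, median -0.020) ran from -0.05 ± 0.06 (Exosc1) and -0.04 ± 0.06 (Exosc2) to 0.03 ± 0.05 (Exosc8) and 0.05 ± 0.07 (Exosc4). Transcripts known as targets of the pathway (10 genes, median -0.036) were read as gene counts. Such counts do not separate decay from synthesis, so they do not measure the activity of the pathway. None of these transcripts was called. The ends of their range were Atf3 at -0.17 ± 0.19 and Gadd45a at -0.12 ± 0.16, and Gadd45b at 0.08 ± 0.20 and Tbl2 at 0.08 ± 0.05. These values are shared log2 fold changes with their SE. Gadd45a had opposite signs in single tissues, -0.89 ± 0.22 in liver (adjusted p = 0.632 in edgeR's quasi-likelihood test) and 0.39 ± 0.12 in muscle (adjusted p = 0.519). Its liver libraries held 6.75, 8.09 and 8.25 CPM in WT and 3.56, 3.76 and 5.32 in heterozygous mice, and its muscle libraries 69.4, 76.6 and 80.4 and then 98.4, 89.2 and 112.9. Neither tissue overlapped, and the edgeR test of a difference between tissues gave an adjusted p of 0.869 for Gadd45a.

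Between tissues, members called and higher in spleen were 7 of 9 against brain (background 37.0% of genes in that direction), 7 against kidney (36.3%), 7 against liver (37.7%) and 3 against muscle (38.1%), and 0, 0, 0 and 2 were called in the other direction. Total counts changed the sign of Upf2 and Smg5 against muscle, and placed all 9 members highest in spleen. For the other lists the counts against brain, kidney, liver and muscle are given in that order, without a test against the members. Of 7 other decay factors 5, 6, 5 and 4 were called higher in spleen and 1, 1, 2 and 2 lower. Of 11 exon junction complex genes 10, 9, 8 and 7 were higher and 0, 1, 0 and 1 lower. Of 10 termination factors 6, 4, 4 and 4 were higher and 2, 2, 4 and 4 lower. Of 9 decapping factors 7, 8, 7 and 7 were higher and 0, 0, 1 and 0 lower, and of 10 CCR4-NOT genes 7, 8, 6 and 7 were higher and 1, 1, 0 and 3 lower. Of 13 exosome and Ski genes 9, 9, 6 and 4 were higher and 1, 2, 3 and 3 lower, and of 10 target transcripts 7, 9, 7 and 5 were higher and 0, 0, 1 and 2 lower.

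Over the 15 WT libraries, the members most alike were Upf2 and Smg5 (Pearson r = 0.974 of log2 CPM) and the least alike Upf2 and Smg6 (r = -0.574). The named gene with the most similar profile to each member, among 17291, was Trim27 for Upf1 (r = 0.965), Slu7 for Upf2 (0.985), Paf1 for Upf3a (0.933) and Ofd1 for Upf3b (0.9749). It was Xrn1 for Smg1 (0.979), Slc4a1ap for Smg5 (0.977), Znfx1 for Smg6 (0.939), Smcr8 for Smg8 (0.902) and Relt for Smg9 (0.971). These are descriptions over 5 tissues with 3 libraries each, so they rest mostly on 5 tissue levels, and no test was made.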

How the data were processed

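Per the file headers, the authors counted fragments per gene with featureCounts 1.5.0-p3 on Ensembl release 86 exons of GRCm38, from IRFinder alignments, without strand and leaving out multi-mapping fragments and those lying on more than 1 gene. The deposited values are these raw counts, in 1 table per tissue. The submitters' processing notes also name FastQC, STAR and DESeq2, with roles not given. Without strand, fragments on exon bases that Upf1 (1.47% of them) and Smg6 (2.87%) share with other genes were left out.

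Tests used edgeR 4.0.16 (quasi-likelihood, TMM, default filter on low counts, Benjamini-Hochberg over all genes tested; called at an adjusted p under 0.05) in R 4.3.3, checked on simulated data, with all 9 members passing the filter throughout. CPM and FPKM were computed from the counts. Alternatives were DESeq2 1.42.0, limma 3.58.1, other scalings, filters, blocks and left-out libraries. Replicates are separate samples by their titles, and the stated design has 3 WT and 3 heterozygous mice. No label links a library to a mouse. If the replicates of a group were not separate animals, p-values would measure only technical spread. The members, the gene and marker lists and the comparisons were chosen with earlier results of these data known. Named were all members and, per list, the 2 highest and 2 lowest shared fold changes, of which 1 gene is not reported here. The tests ignore replicate numbers, and the fit with the number as a block is an alternative. The numbers met the rule for pairing WT and heterozygous libraries in brain and kidney, where deviations of same-numbered libraries correlated at 0.119 to 0.401 and 0.164 to 0.245, and not in liver, muscle or spleen, where at least 1 pair was under 0.1. Intervals cover the spread between libraries.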

Additional observations from a re-analysis of the deposited data

How the results depend on the processing

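No alternative called a member in a genotype comparison: 0 of 9 in each tissue, shared and differing between tissues, under all 639 and 153 alternative values. Among uncalled log2 fold changes, 61 of the 639 and 20 of the 153 changed sign, in 22 of 45 and 5 of 9 results. Counts over all genes were unstable where the members' were not. In brain, kidney, liver, muscle and spleen (3, 4, 3, 4 and 45 genes), DESeq2 called 28, 164, 73, 159 and 187, the filter of 1 count 6, 45, 16, 66 and 74, and the fit of all 30 libraries 1, 13, 37, 229 and 250. The replicate block gave 22, 21, 7, 118 and 0. A filter of 10 counts in every library gave 2 in kidney and 0 in spleen, and limma-voom 2 in muscle and 97 in spleen. Leaving out 1 library gave 0 to 1 (brain), 3 to 56 (kidney, without heterozygous replicate 3 the highest), 1 to 17 (liver), 1 to 2 (muscle) and 0 to 29 (spleen). Without WT replicate 1 and heterozygous replicate 2 spleen had 0. The shared fit (47 genes) gave 153 with DESeq2, 0 with libraries summed per genotype and replicate number, 23, 16, 15 and 18 without brain, kidney, liver or muscle, and 12 to 39 without 1 replicate. The differing effect (184) gave 734 with DESeq2, 279 with genotype and replicate number as a random effect, 121 without brain, 37 without spleen and 35 to 145 without 1 replicate. No label says that a number marks 1 mouse across tissues, and the estimated correlation of libraries sharing it was 0.024 and 0.020 in the shared and differing fits.

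Between tissues, members called were 1 to 4 without 1 WT replicate number for brain against kidney (main 5, lowest without replicate 2), 3 to 5 for brain against spleen (7, without replicate 1), 1 to 2 for kidney against liver (3, without replicate 1 or 2), 4 to 6 for kidney against muscle (7, without replicate 1) and 3 to 5 for muscle against spleen (5, without replicate 1). The filter of 1 count called 3 for brain against kidney. Total counts called 9 for brain against liver, 8 for kidney against liver and 9 for muscle against spleen. With 10 counts in every library, genes called fell to 9034, 9406, 9640 and 9764 for brain against kidney, liver, muscle and spleen, 7423, 8934 and 9731 for kidney against liver, muscle and spleen, 9136 and 9820 for liver against muscle and spleen, and 10100 for muscle against spleen, since fewer genes were tested.

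Total counts changed the sign of 27 of the 90 log2 differences, 4 of them called under neither scaling: Smg1 for kidney against liver (0.78), kidney against muscle (0.83) and liver against muscle (0.05), and Smg6 for brain against kidney (0.08). The others follow. Brain against liver became 0.47 (Upf1), 0.92 (Smg6) and 0.83 (Smg8). Brain against muscle became 0.47 (Upf2), 0.27 (Upf3b), 0.77 (Smg5), 0.87 (Smg9), 0.91 (Upf3a), 0.63 (Upf1) and 1.20 (Smg8). Kidney against liver became 0.98 (Smg5), 0.86 (Smg9), 0.53 (Upf1), 0.84 (Smg6) and 0.42 (Smg8). Kidney against muscle became 0.39 (Upf3b), 0.15 (Smg5), 0.92 (Upf3a), 0.69 (Upf1) and 0.80 (Smg8). Liver against spleen became -1.15 (Smg8), and muscle against spleen -0.84 (Upf2) and -1.09 (Smg5, and -0.0040 in heterozygous libraries). The replicate block called no further member between genotypes and changed the sign of 1 of the 90 tissue differences, that of Upf1 for liver against muscle (0.0046 to -0.0069, not called). The heterozygous minus WT log2 ratio of Upf3a to Upf3b ran, without 1 library, from -0.016 to 0.137 (brain), -0.046 to 0.213 (kidney), -0.475 to -0.120 (liver), -0.149 to 0.104 (muscle) and -0.117 to 0.180 (spleen). Where a value changed, the cause was not tested. Precision is limited by the 3 libraries per group.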
